A study of Mus musculus with 4 samples.

Results

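The genes of insulin and leptin receptor signalling considered here are 10: the receptor genes Insr and Lepr, the adaptor genes Irs1 and Irs2, the kinase genes Pik3r1 and Akt2, the brake genes Ptpn1 and Socs3, the transcription factor gene Foxo3 and its classical liver target Igfbp1. They are 10 of 23462 genes named on a mouse expression array, and 18 of its 56605 probes are assigned to their RefSeq transcripts. The members were chosen by pathway with earlier results from the same 4 arrays in view, among them the difference of Lepr between arrays, so the values below describe them and carry no test. Whole-liver RNA of male mice was hybridized in 1 colour (Cy5), 1 array for each of 4 groups. The combination array carries RNA of aged diabetic mice that received both astragalus polysaccharide, a plant polysaccharide preparation, and metformin, a biguanide used to lower blood glucose. The metformin array carries aged diabetic mice given metformin alone, the diabetic array aged diabetic mice, and the control array naturally aged mice. Old age is therefore shared by all 4 groups, and diabetes by 3 of them. Strain, age, the way diabetes was produced, doses, and whether RNA of several mice was pooled are not stated in the labels, whose titles add 60 d with no starting point.

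Insulin binding to its receptor, encoded by Insr, leads the receptor to phosphorylate the adaptors IRS1 and IRS2, which recruit PI3-kinase through its regulatory subunit (Pik3r1) and so activate the kinase AKT2. In hepatocytes AKT2 keeps FOXO factors out of the nucleus, which lowers transcription of glucose-producing genes and of Igfbp1. The leptin receptor acts through the kinase JAK2 and the factor STAT3, whose target SOCS3 feeds back on both receptors, while the phosphatase PTP1B, encoded by Ptpn1, removes phosphate from the insulin receptor and from JAK2.

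With 1 array a group there was no replicate spread, no test and no p-value, and the number of arrays limits the precision of every value. Differences are therefore set against technical errors only: repeated spots of 1 probe gave a log2 difference between arrays an SD of 0.092 to 0.098, and the scanner software's own error for a member probe's difference was 0.16 to 0.30. Neither holds the variation between mice, RNA preparations or hybridizations. Over 24363 probes above background on all arrays the log2 signals of any 2 arrays correlated at 0.950 to 0.965, all 4 arrays lay on 1 slide scanned once, and no spot was saturated. Levels are processed intensities scaled so that every array has the same 75th percentile over probes kept on all arrays. Spots marked as outliers, 2.18% to 5.35% of each array, were left out. Of the 18 member probes, 15 were kept and above background on all 4 arrays. The hepatocyte marker genes Alb, Ttr, Ahsg, Hpd, Tat and Fgb were above background on every array.

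The receptor genes behaved unlike each other. Insr, which encodes the insulin receptor, differed by less than 2-fold between any 2 arrays. Its probe for NM_010568 read 207 on the combination array, 216 on the metformin array, 217 on the diabetic array and 369 on the control array, so control was highest and the 3 diabetic arrays lay close together. Its probe for NM_001330056 read 337, 338, 471 and 413 on the combination, metformin, diabetic and control arrays, with diabetic highest. The probes thus differ in sign for diabetic minus control, at -0.77 and 0.19 on the log2 scale, and their mean of -0.29 gives no settled direction.

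Lepr, which encodes the leptin receptor, spread over the arrays more than any other member measured on all 4. The first of its probes for NM_010704 read 2209 on the combination array, 319 on the metformin array, 4564 on the diabetic array and 941 on the control array. The second read 2815, 309, 6544 and 2308 in the same order of arrays. Both placed diabetic first, combination next, then control, with metformin far below. The mean of both probes put Lepr 3.71-fold higher on the diabetic than on the control array, with 4.85-fold on the first probe and 2.84-fold on the second. On the metformin array it was 17.4-fold lower than on the diabetic array, 14.3-fold and 21.2-fold by probe, the third lowest difference among 13900 genes measured on both. On the combination array Lepr was 2.19-fold lower than on the diabetic array and 7.95-fold higher than on the metformin array, where it ranked 7th highest of 14363 genes. Against the control array, Lepr was 4.70-fold lower on metformin and 1.69-fold higher on combination, and the last of these rests on probes that disagree (2.35-fold and 1.22-fold).

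A further Lepr probe, for NM_001122899, gave a uniform spot only on the combination array, at 18741. Its spots on the metformin, diabetic and control arrays were marked non-uniform and left out, and they read 2433, 23627 and 6544, which is the order of arrays that the kept probes show. The remaining probe, for NM_146146, the transcript of the long receptor form that signals to STAT3, was not well above background on any array, at 65.1, 20.7, 59.0 and 29.6 on combination, metformin, diabetic and control. The lowest signals above background on those arrays were 112, 98.6, 117 and 143, so no difference in this transcript was measurable with this probe. Whether the other probes also bind it was not tested. In whole tissue, fewer cells of a type and less RNA per cell cannot be told apart, here or for any gene below.

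**Figure D1:**
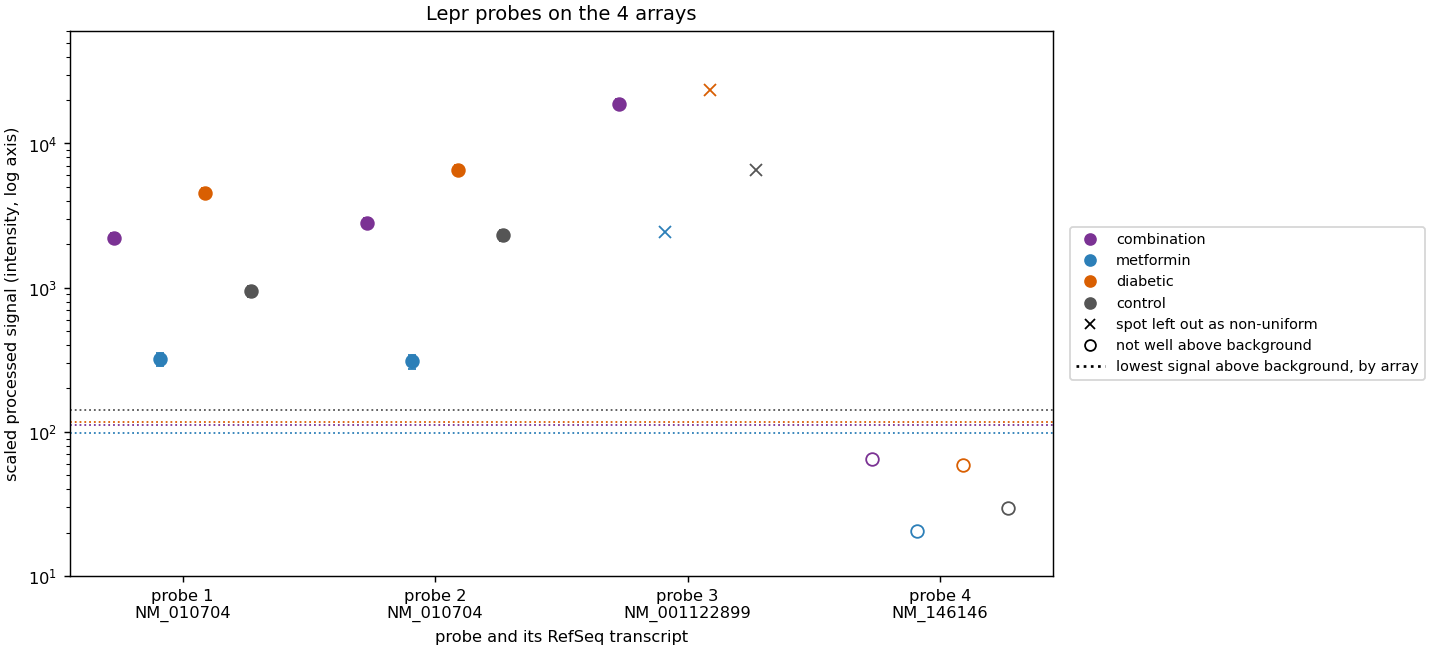
Scaled processed signal (intensity, log axis) of the 4 Lepr probes on the combination, metformin, diabetic and control arrays; crosses are spots left out as non-uniform, open circles are not well above background, bars are the scanner software's error and dotted lines the lowest signal above background on each array. On the first and second probes the metformin array reads 319 and 309 and the diabetic array 4564 and 6544, while every spot of the NM_146146 probe lies under its array's dotted line.

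The adaptor genes differed in direction. Irs1 read 8683, 9013, 8296 and 6442 on the combination, metformin, diabetic and control arrays, so the 3 diabetic arrays lay within 1.09-fold of each other and control was lowest. Diabetic was 0.36 above control on the log2 scale, more than the technical error and well short of 2-fold. Irs2, whose transcription FOXO factors drive in mouse liver, read 8790.2 on combination, 4641 on metformin, 6794 on diabetic and 14463 on control. Control was highest and metformin lowest: Irs2 was 2.13-fold lower on the diabetic array and 3.12-fold lower on the metformin array than on the control array, and 1.89-fold higher on combination than on metformin. Measured from the all-gene median of the same comparison, the diabetic difference of Irs2 was -0.98, just inside 2-fold.

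The kinase genes stayed within 2-fold. Akt2, the AKT gene most tied to insulin action in liver, read 2726, 2046, 1875 and 2844 with its probe for NM_007434 on the combination, metformin, diabetic and control arrays. A probe for NM_001331108 read 18518, 16786.5, 19439.5 and 22007, and another for the same transcript 1712, 1148, 1535 and 2031. All 3 were highest on control, and their mean put Akt2 0.39 lower on diabetic and 0.56 lower on metformin than on control. Pik3r1 had 1 probe, which read 1484 on combination, 2057 on metformin and 2548 on control; its diabetic spot was marked an outlier and left out. Combination was thus lowest, 1.72-fold under control.

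Both brake genes were lower on all 3 diabetic arrays than on the control array. The first Ptpn1 probe read 10976, 13667, 12935 and 23799.6 on combination, metformin, diabetic and control, and the second read 2032, 2368, 2150.5 and 4568. The probes gave like differences, and their mean put Ptpn1 1.98-fold lower on diabetic and 2.21-fold lower on combination than on control. Among the 3 diabetic arrays Ptpn1 spanned only 0.27 in log2. Socs3 read 3881 on combination, 5223 on metformin, 2575 on diabetic and 16290.2 on control. Its control level stood apart from all the others: Socs3 was 6.33-fold lower on diabetic, 3.12-fold lower on metformin and 4.20-fold lower on combination. On the metformin array it was 2.03-fold higher than on the diabetic array, and on the combination array 1.51-fold higher. The Socs3 promoter is printed because SOCS3 is a STAT3 target and its window holds a palindromic STAT motif (TTCNNNGAA), in capitals, 154 bases before the annotated start. The 250 bases upstream of the start lie at chr11:117969367-117969616 on the minus strand of GRCm38.p6 (RefSeq), 5′ to 3′.
Socs3: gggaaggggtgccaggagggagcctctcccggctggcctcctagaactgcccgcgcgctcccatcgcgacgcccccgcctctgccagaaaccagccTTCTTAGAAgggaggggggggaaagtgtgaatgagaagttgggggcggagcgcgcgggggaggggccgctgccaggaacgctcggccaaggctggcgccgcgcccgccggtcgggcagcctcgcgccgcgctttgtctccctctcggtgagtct

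Foxo3, a FOXO factor held back by AKT, read 367, 342, 186 and 541 with its first probe on combination, metformin, diabetic and control, and 3693, 2118, 2423 and 3718 with its second. Control was highest on both probes, by a small margin over combination on the second. Foxo3 was 2.11-fold lower on the diabetic than on the control array, with probe differences of -1.54 and -0.62 in log2, and -0.97 once the all-gene median was taken off. The probes disagreed in sign for metformin minus diabetic, at 0.88 and -0.19. Igfbp1, a secreted IGF-binding protein whose gene insulin represses in liver, read 48238, 31856, 34542.5 and 64627 on the combination, metformin, diabetic and control arrays. It was 2.03-fold lower on metformin and 1.87-fold lower on diabetic than on control, with combination in between. Taken from the all-gene median, the metformin difference of Igfbp1 was -0.83, and it passed 2-fold under 5 of 12 other ways of processing.

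Promoter windows were at hand from RefSeq (GRCm38.p6) for 9 members, 14 windows in all, each searched over the 250 bases before the annotated start. The motifs, on both strands, were the FOXO core GTAAACA, the insulin response core CAAAACA known from the Igfbp1 promoter, and the STAT palindrome. They occurred in 3.17%, 5.56% and 7.02% of all 32851 windows of that length. Of the member windows, 6 held a match to any of the 3 motifs, and the share of all windows that do was not computed. None of the 14 held the letters GTAAACA, and whether FOXO factors bind in these windows was not tested. The insulin response core was found in Irs1 at 111 and 32 bases before the start, in Irs2 at 37, in 1 of the Lepr windows at 114 and in Igfbp1 at 108, and the STAT palindrome in Akt2 at 160 besides Socs3. A match is a run of letters and not a bound site. Igfbp1 and Irs2 hold the insulin response core and had the same order of arrays. Irs1 and Lepr, which also hold it, had other orders. The mean of the Akt2 probes had the Igfbp1 and Irs2 order with no such core in its windows. For Igfbp1 the order of metformin and diabetic is not settled. Metformin minus diabetic was -0.12 in log2, within the software's error of 0.16, and kept its sign under 8 of 12 other ways of processing. The windows of Igfbp1 (plus strand, chr11:7197537-7197786) and Irs2 (minus strand, chr8:11008930-11009179) are printed with the core in capitals, on the reverse strand in Irs2.
Igfbp1: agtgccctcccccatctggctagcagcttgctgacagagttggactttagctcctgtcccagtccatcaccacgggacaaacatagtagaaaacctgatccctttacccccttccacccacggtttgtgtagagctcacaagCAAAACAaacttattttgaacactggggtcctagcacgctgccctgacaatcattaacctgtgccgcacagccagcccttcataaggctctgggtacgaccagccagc
Irs2: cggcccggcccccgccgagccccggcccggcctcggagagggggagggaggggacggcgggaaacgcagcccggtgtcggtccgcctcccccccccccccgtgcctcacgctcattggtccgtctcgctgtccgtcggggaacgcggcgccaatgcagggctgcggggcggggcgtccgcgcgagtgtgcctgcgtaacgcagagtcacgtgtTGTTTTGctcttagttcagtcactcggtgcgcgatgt

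**Figure D2:**
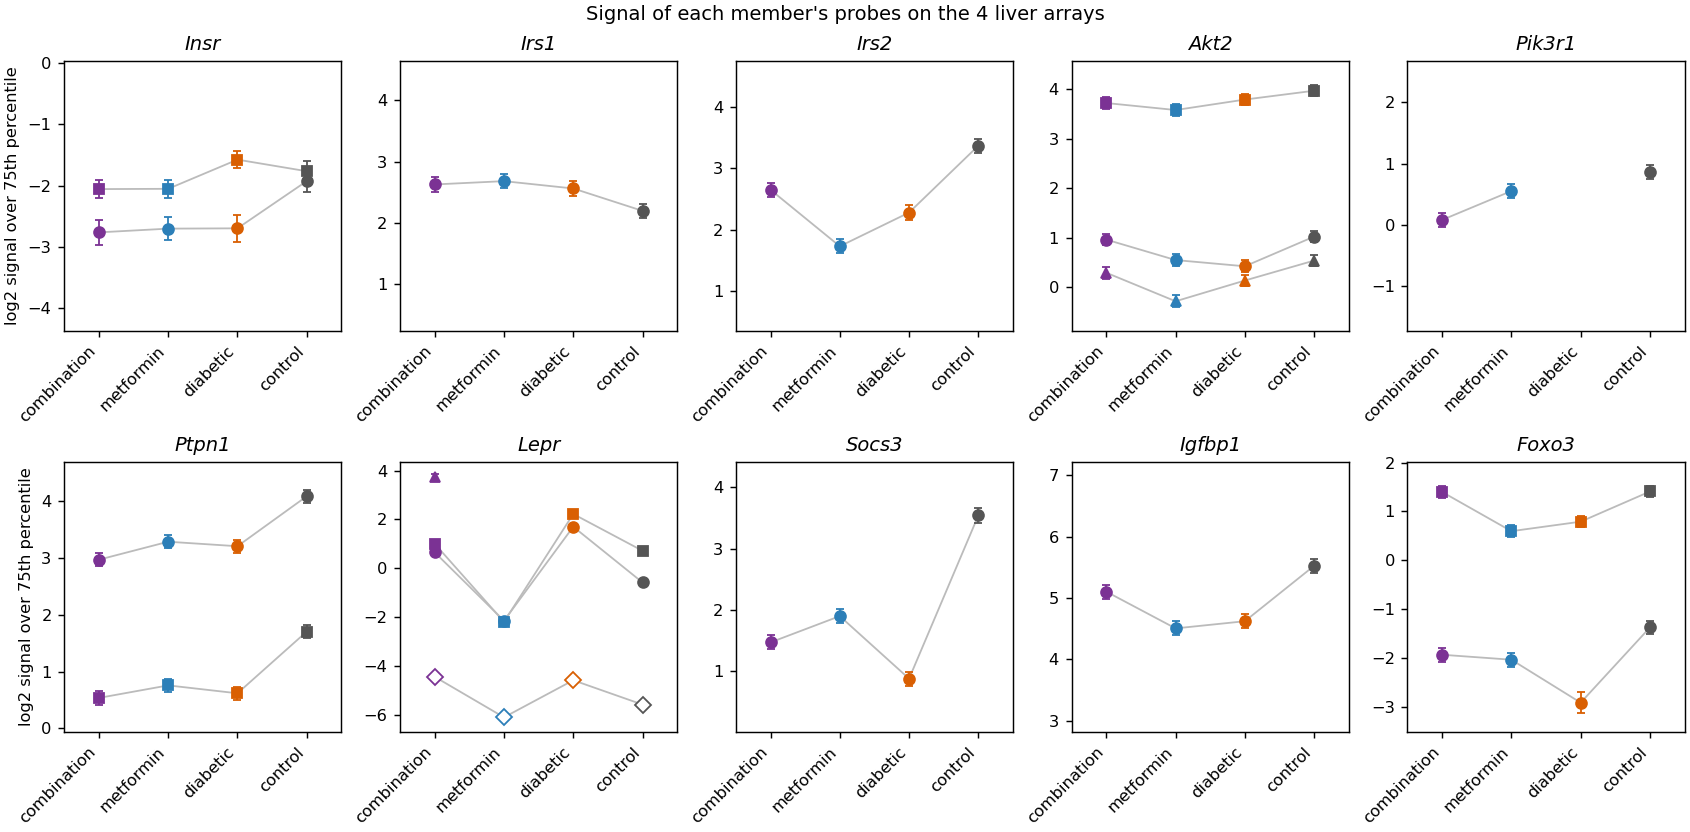
Each panel plots 1 member's log2 signal over its array's 75th percentile for the combination, metformin, diabetic and control arrays, 1 marker shape per probe, bars for the scanner software's error, open markers for spots not well above background; spots left out are not drawn and the vertical spans differ. Socs3, Irs2, Ptpn1, Igfbp1 and Foxo3 are highest on the control array and Irs1 lowest there, while Lepr is highest on the diabetic array and lowest on the metformin array.

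Set side by side, 6 of the 9 members measured on all arrays spanned at least 2-fold, where 3664 of 12702 genes (28.8%) did. Irs2 and Igfbp1, with 1 probe each, had the same order of arrays: control, combination, diabetic, metformin. The mean of the Akt2 probes had it too, but only 1 of the 3 probes by itself. Igfbp1 differed between diabetic and metformin by less than the software's error, so its order of these arrays is not settled. In diabetic against control livers, 4 of 9 measured members were at least 2-fold apart, 1 higher (Lepr) and 3 lower (Socs3, Irs2, Foxo3), where 11.7% of 13475 genes were, 5.97% higher and 5.69% lower. The member median was -0.90 in log2 against -0.11 for all genes. Since earlier results from these arrays were known when the members were chosen, nothing is read from these counts, here or below.

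In metformin against diabetic livers, 2 of 9 members passed 2-fold, Socs3 higher and Lepr lower, beside 12.4% of 13900 genes, 8.82% higher and 3.54% lower. The medians were -0.12 for members and -0.11 for all genes. In combination against diabetic livers 1 of 9 did, Lepr (lower), beside 9.77% of 14108 genes, 3.98% higher and 5.79% lower. The medians were 0.21 and 0.04. In combination against metformin livers 1 of 10 did, Lepr (higher), beside 11.3% of 14363 genes, 2.62% higher and 8.72% lower. The medians were 0.17 and 0.10. Combination and metformin livers, which differ by the polysaccharide, were thus within 2-fold of each other for every member but Lepr, with Irs2 next at 0.92 in log2.

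In metformin against control livers 9 of 10 members were below 0, as were 61.4% of all genes, and 4 were at least 2-fold lower (Lepr, Socs3, Irs2, Igfbp1), beside 13.8% of 13506 genes past 2-fold, 8.09% higher and 5.72% lower. The medians were -0.81 for members and -0.19 for all genes. On a scale set by spike-in probes Insr, Akt2 and Pik3r1 stood above 0 in this pair, at 0.14, 0.11 and 0.36. In combination against control livers 8 of 10 were below 0, as were 56.5% of all genes, and 2 were at least 2-fold lower (Socs3, Ptpn1), beside 10.5% of 13845 genes, 4.6% higher and 5.9% lower. The medians were -0.49 and -0.07. The diabetic array enters 3 of the 6 pairs and the control array likewise 3, so the pairs are not independent of each other.

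**Figure D3:**
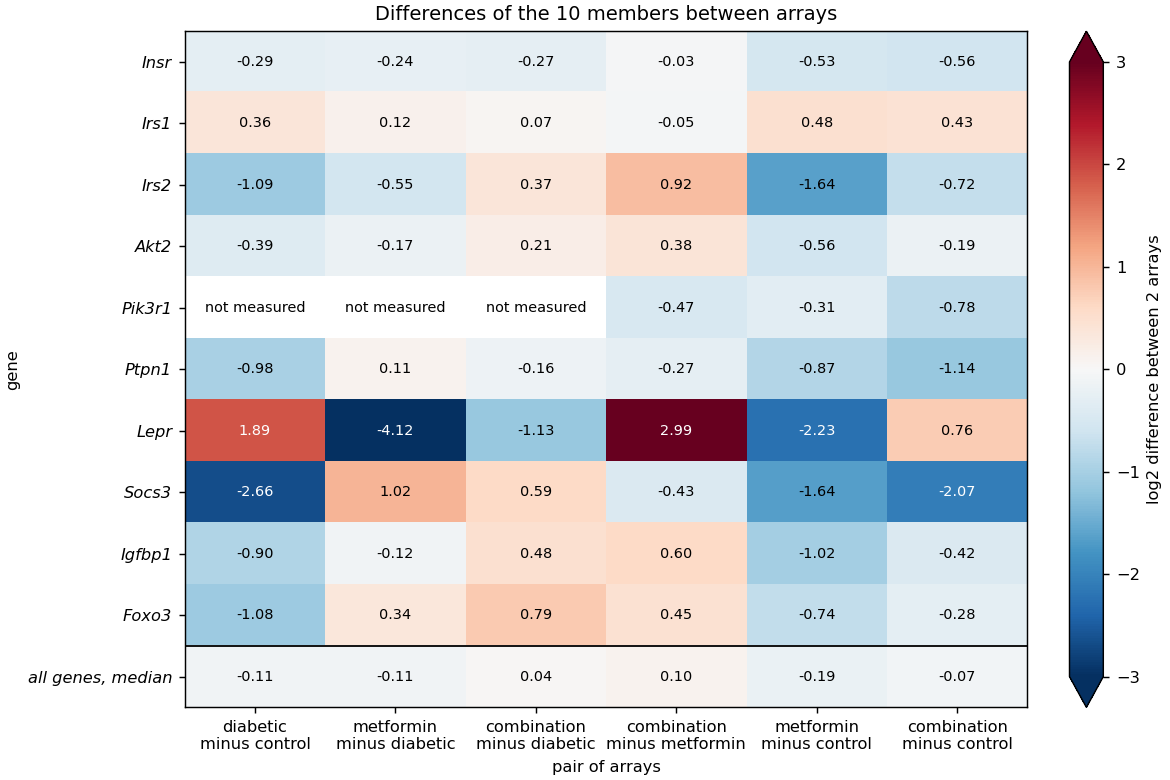
Log2 difference of each member, and the all-gene median, in the 6 pairs of arrays, each named as first array minus second; colours stop at 3 either way and Pik3r1 was not measured on the diabetic array. Socs3 at -2.66 and Lepr at 1.89 stand furthest from 0 in diabetic minus control, and Lepr at -4.12 in metformin minus diabetic.

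The ligands' own genes were also on the array. Lep, which encodes leptin and is made mainly by adipocytes, read 350.1, 299, 353 and 382 on the combination, metformin, diabetic and control arrays. Ins1 and Ins2 encode insulin and belong to pancreatic beta cells; Ins1 read 400.4, 528, 331 and 267 in that order of arrays. Ins2 read 728, 757, 462 and 873. All were above background on every array, and no single order of arrays held for the 3 genes.

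Other genes of the route from the insulin receptor to AKT stayed mostly near 0. Of 27 listed, 22 were measured in diabetic and control livers, 0 were at least 2-fold higher and 1 lower, beside 5.97% and 5.69% of all genes: Rictor, a subunit of the mTORC2 complex that phosphorylates AKT, at -1.37. The list median was 0.01, against -0.11 for all genes. In metformin against diabetic livers 0 of 21 passed 2-fold either way, beside 12.4% of all genes. In combination against diabetic livers 1 of 22 did, beside 9.77% of all genes: Pik3r3, a PI3-kinase regulatory subunit, at -1.34. Foxo1, the FOXO gene most tied to glucose production in mouse liver, lay at -0.22 in diabetic minus control, -0.18 in metformin minus diabetic and -0.01 in combination minus diabetic.

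The brakes held the widest differences among the lists in diabetic against control livers. Of 19 measured, 3 were at least 2-fold lower and 1 higher, where 5.69% of all genes were lower and 5.97% higher. The list median was -0.26, against -0.11 for all genes. Cish, a SOCS-family gene induced by STAT5, read 3256 on combination, 1942 on metformin, 754 on diabetic and 10267 on control. It was 13.6-fold lower on diabetic than on control, and 1.37 and 2.11 in log2 above diabetic on metformin and combination. Socs2 and Socs1, of the same family, were lower on diabetic than on control by differences of -2.54 and -1.97. Like Socs3, the 3 genes were highest on control where measured, although Socs2 rested on different probes in different pairs and Socs1 was dim, at 122, 248, 151 and 592. Trib3, a pseudokinase that binds AKT, ran the other way, at 12439, 11838, 7489.8 and 1883, so that all 3 diabetic arrays were above control.

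In metformin against diabetic livers 1 of 18 brakes was at least 2-fold higher (Cish) and 0 lower, beside 8.82% and 3.54% of all genes. The list median was 0.07, against -0.11 for all genes. In combination against diabetic livers 2 of 19 were higher (Cish and Socs2, at 1.38) and 0 lower, beside 3.98% and 5.79% of all genes. The median was 0.22, against 0.04 for all genes. In combination against metformin livers 2 of 17 were lower, beside 8.72% of all genes: Ptpn6, a phosphatase gene, at -1.07 and Socs1 at -1.02.

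Of the partners of the leptin receptor family, 10 were measured in diabetic and control livers and 8 were below 0, where 59.7% of all genes were. The list median was -0.53, against -0.11 for all genes. At least 2-fold lower, like 5.69% of all genes, were 2: Osmr, the oncostatin M receptor, at -1.72 and Lifr, the LIF receptor, at -1.36 as the mean of 3 probes. Osmr read 2029.6, 2747, 1137 and 3732 on combination, metformin, diabetic and control. Jak2, the kinase bound to the leptin receptor, read 928, 632, 585 and 1074, at -0.88 for diabetic minus control, and Stat3 lay at -0.67. In metformin against diabetic livers 2 of 10 were higher and 0 lower, beside 8.82% and 3.54% of all genes. The 2 were Osmr at 1.27 and Leprot at 1.19. Leprot encodes a protein that limits leptin receptor at the cell surface, and its probes disagreed in size, reading 14347, 15873, 11966 and 14228.5 against 3244, 6242, 1599 and 1670.2. In combination against diabetic livers 0 of 11 passed 2-fold, beside 9.77% of all genes. Il6st, which encodes the shared receptor chain gp130, was at -1.83 in metformin minus control and -2.40 in combination minus control. Both values rest on a dim probe that read 120 on combination, 179 on metformin and 635 on control, since the spots of a brighter Il6st probe were left out on the metformin and control arrays. In metformin minus control 7 of 11 partners were below 0, close to the share of all genes.

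Among the IGF genes, 4 of 10 were at least 2-fold higher in metformin than in diabetic livers and 0 lower, beside 8.82% and 3.54% of all genes: Igf2, a fetal growth factor, at 3.55, and the binding protein genes Igfbp6 at 1.60, Igfbp5 at 1.48 and Igfbp3 at 1.34. Igf2 read 1714 on combination, 5906 on metformin, 505 on diabetic and 52.1 on control, where it was not well above background. The stellate cell markers were also higher on metformin than on diabetic, 3 of 4 measured past 2-fold and the median at 1.99: Pdgfrb lay at 2.47, Col3a1 at 2.19 and Col1a1 at 1.78. The summed scaled signal of the stellate cell markers was 8253, 27551, 6553 and 19204 on combination, metformin, diabetic and control. Lymphocyte and acinar pancreas markers were higher on metformin than on diabetic as well, 4 of 5 and 6 of 7 past 2-fold with medians at 3.08 and 1.92. Hepatocyte markers were below 0 in that pair, 7 of 7 measured. The part of these cell types in the IGF differences was not tested. In diabetic against control livers 2 of 9 IGF genes were at least 2-fold lower and 0 higher, beside 5.69% and 5.97% of all genes. They were Igfals, which encodes the protein that keeps circulating IGF complexes stable, at -1.43, and Igfbp3 at -1.13. The list median was -0.41, against -0.11 for all genes. Igfals read 1574, 2236, 2658 and 7178 on combination, metformin, diabetic and control. Igf1 lay at -0.41 in that pair, without reaching 2-fold.

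Of genes known to be under FOXO or insulin control, 4 of 19 measured in diabetic and control livers were at least 2-fold lower on diabetic and 0 higher, beside 5.69% and 5.97% of all genes. The median was -0.45, against -0.11 for all genes. The 4 were Pdk4, an inhibitor of pyruvate dehydrogenase, at -2.40, Txnip at -1.12, Srebf1 at -1.04, and Gadd45a. Pdk4 read 5535, 10787, 2869.8 and 15135 on combination, metformin, diabetic and control. In metformin against diabetic livers it was the 1 gene of 17 past 2-fold, at 1.91, beside 12.4% of all genes. Pck1 and G6pc, the glucose-producing enzymes, stayed within 2-fold on all pairs with the diabetic array, at -0.35 and -0.50 in diabetic minus control.

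In combination against diabetic livers 2 of 19 target genes passed 2-fold upward and 3 downward, beside 3.98% and 5.79% of all genes. Among the lower genes were Pnpla3, a lipid droplet gene, at -2.54 and Gadd45a, a stress and DNA damage response gene, at -1.12. Ppargc1a, a coactivator of fasting gene expression, was higher at 2.22, and Sesn1 at 1.22. Ppargc1a read 20316, 7878, 6211 and 7120.1 on combination, metformin, diabetic and control with its first probe.

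**Figure D4:**
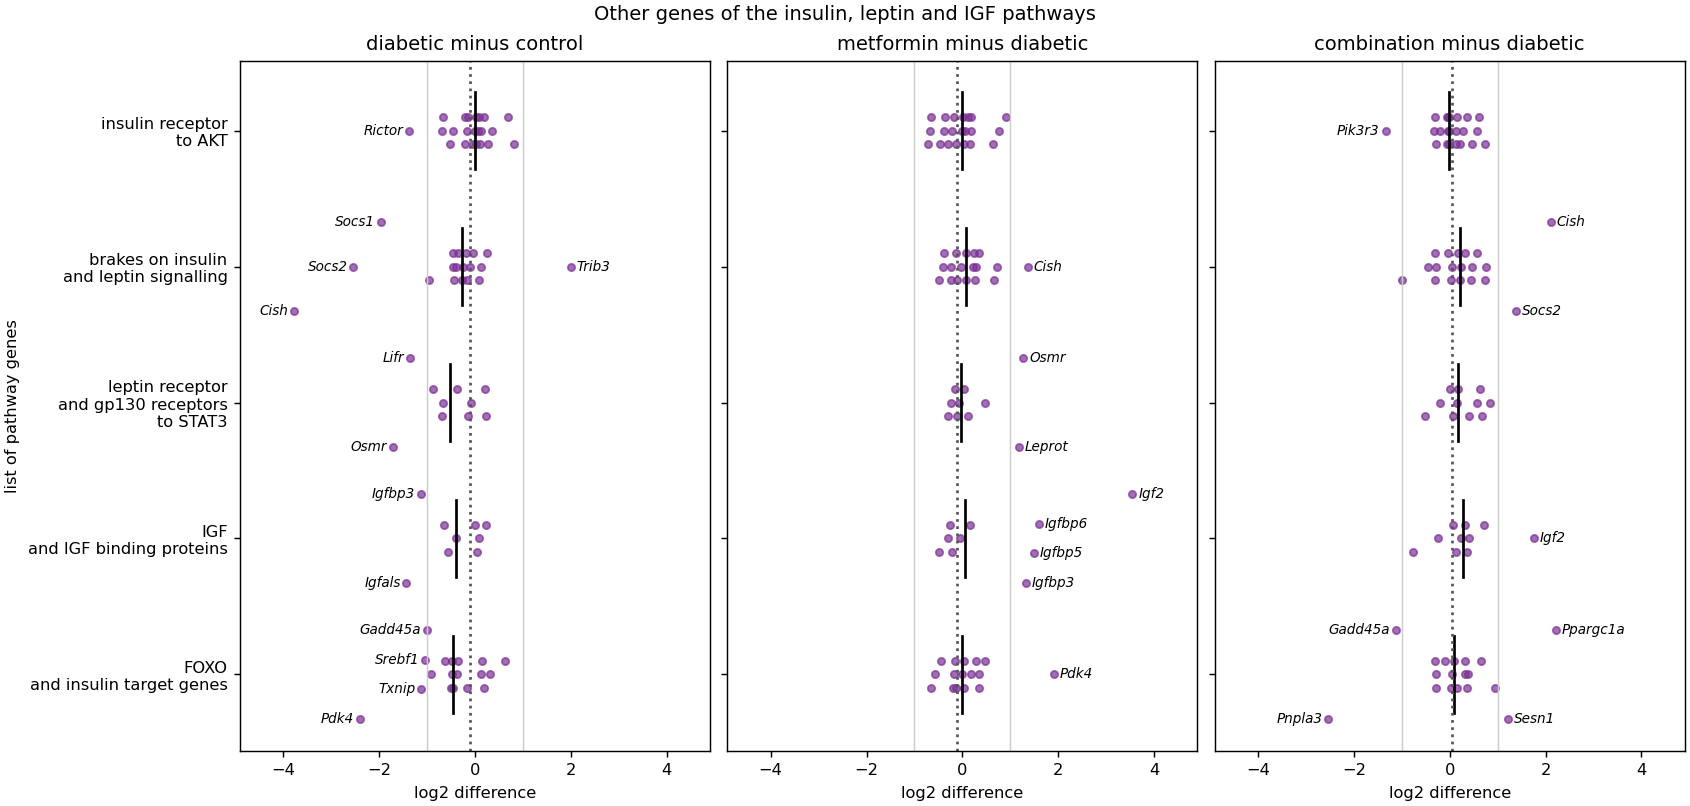
Log2 differences of the genes of the 5 lists in diabetic minus control, metformin minus diabetic and combination minus diabetic; each dot is a gene, black bars are list medians, the dotted line is the all-gene median and grey lines mark 2-fold, with genes past it named. Cish at -3.77 and Socs2 at -2.54 lie lowest in diabetic minus control, and Igf2 at 3.55 highest in metformin minus diabetic.

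Profiles across the arrays were compared over the 11406 genes above background on all 4 whose symbols are plain gene names, without predicted genes, each centred on its own mean. Nearest to Socs3 by Euclidean distance were Trim62 (0.09), Bcl3 (0.22) and Apold1 (0.25). Nearest to Irs2 were Rbmxl2 (0.07), Pml (0.07) and Khdc4 (0.15), and nearest to Ptpn1 were Rpp21 (0.08), Slc25a23 (0.12) and Il27ra (0.13). Igfbp1 lay close to Tex35 (0.03), Zfp940 (0.05) and Nlrp6 (0.06), and Foxo3 to Zfp395 (0.06), Rnf125 (0.08) and Rpl22l1 (0.09). Lepr, with its range of 4.12, had no gene as close: Camk2b stood at 0.90, Atxn1 at 1.23 and Adrb3 at 1.30. Closer than 0.5 were 1652 genes to Igfbp1, 756 to Foxo3, 445 to Ptpn1, 134 to Irs2, 11 to Socs3 and 0 to Lepr. The distance depends on a gene's range over the arrays, so for members of small range the named genes are a few of many near ones. Distances over 4 arrays describe these arrays and carry no test.

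Marker genes of several cell types also differed between the arrays. Scaled signals were summed over each list's probes kept on all 4 arrays. The hepatocyte sum was 363591 on combination, 260596 on metformin, 346517 on diabetic and 438464 on control. This is the order of arrays seen for Irs2 and Igfbp1, although Igfbp1 differed between diabetic and metformin by less than the software's error. Apoa1 was left out on combination and Cps1 on the other arrays, so the hepatocyte sum holds neither gene. In diabetic minus control 7 of 7 measured hepatocyte markers were below 0, as were 59.7% of all genes. Their median was -0.40, beside -1.09 for Irs2, a member median of -0.90 and an all-gene median of -0.11. In metformin minus control 7 of 7 were below 0, as were 61.4% of all genes. Their median was -0.78, beside -1.02 for Igfbp1, a member median of -0.81 and an all-gene median of -0.19. These values depend on the scaling: a spike-in scale shifted the all-gene medians of the 2 pairs upward by 0.22 and 0.67. Marker medians were not computed on that scale. Acinar pancreas markers summed to 15178, 51749, 27139 and 201245 on the combination, metformin, diabetic and control arrays, with control and combination at the ends as for Ptpn1. Of that list, 5 of 8 genes (Cpa1, Cel, Cpb1, Prss2 and Try4) were not above background on combination, while all 8 were above background on diabetic. Lymphocyte markers summed to 3407, 11428, 1492 and 6573 in that order of arrays, with metformin highest and diabetic lowest. No member measured on all arrays had the lymphocyte order. Neutrophil markers summed to 4950.3, 10427, 7074 and 22170.4, Kupffer cell markers to 52709, 78178, 70396 and 111179, and endothelial markers to 73058, 71150.3, 59261 and 90423.5, each highest on control. The neutrophil and Kupffer cell sums have the order of arrays of Ptpn1, as the acinar sum does. The Ptpn1 probes gave 0.08 and 0.14 in log2 for metformin minus diabetic, and -0.24 and -0.08 for combination minus diabetic. With a software error of 0.16 to 0.17, the Ptpn1 order among the 3 diabetic arrays is mostly unsettled. The Kupffer cell markers split in metformin minus diabetic, 4 of 7 above 0 and 3 below, from -1.90 (Cd163) to 0.88 (Cd68). Erythroid markers summed to 46270.5 on combination, 40470.4 on metformin, 35170.8 on diabetic and 62271.9 on control. The endothelial and erythroid sums both have the order of arrays of the Foxo3 mean. The second Foxo3 probe by itself does not, since it is lowest on metformin. The endothelial sums on combination and metformin lay close together. In that pair 5 of 6 endothelial markers were higher on combination and 1 lower, Lyve1 at -1.02 in log2. Plin1, which coats adipocyte lipid droplets, and the muscle gene Ckm were not above background on any array, but other genes of their lists were. Of the 6 adipocyte genes, 5 were above background on combination, metformin and control, and 4 on diabetic, where Fabp4 was left out. Of the 4 muscle genes, 3 were above background on combination and metformin, and 2 on diabetic and control. The part of these cell types in the members' differences was not tested.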

How the data were processed

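Total RNA of whole liver was hybridized to Agilent 1-colour mouse arrays. Per the file headers, the deposited spot intensities come from Feature Extraction 11.5.1.1, red channel, on a grid built for mm9; version 10.7 of that software stands in the submitters' processing notes. The software had already subtracted background from the processed intensity used here. The authors' value table holds deposited log2 values, used only as an alternative; its columns correlated at 0.999 to 1.00 with the same arrays' log2 processed intensity and share a median of 7.85, and the sources used here do not give its normalization method.

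Control spots and spots marked non-uniform or population outliers were dropped, spots of 1 probe averaged, and log2 values taken relative to the array's 75th percentile over the 51780 probes kept on all 4 arrays, because outlier loss was uneven. That percentile was 1487, 1649, 1359 and 1159 on the combination, metformin, diabetic and control arrays before scaling. Above background means that the software marked 50% or more of a probe's kept spots as well above it. Through RefSeq transcripts of GRCm38.p6, 33767 probes (59.7%) received 23462 symbols. Probes above background on both arrays were averaged to give a gene's difference, and the threshold was 2-fold. Sources gave groups only through the labels, with 1 array each, so no test was run; the design of every comparison was a difference of 2 arrays.

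Members and gene lists were chosen with earlier results of these data known. Named were all 10 members, at most the 3 list genes furthest past 2-fold each way per list and comparison, and the 3 nearest profiles of members spanning at least 2-fold; Gadd45a in diabetic minus control, the ligand genes and Foxo1, Jak2, Stat3, Igf1, Pck1 and G6pc were added after their values were seen. Igfbp3 in metformin minus diabetic was also named beyond the 3 furthest list genes. Of the lists, 1 gene is counted but not reported here. The procedure was tested on simulated data. The alternatives covered scaling, background correction (normexp with an offset of 50 in limma 3.58.1, R 4.3.3, on median spot and background signals, since no mean signal column was used here), outlier spots, filters, probe summaries, the authors' table and a 1.5-fold threshold. Other steps used Python 3.11.15, numpy 2.4.6, pandas 2.3.3, scipy 1.17.1 and matplotlib 3.10.9.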

Additional observations from a re-analysis of the deposited data

How the results depend on the processing

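Of the 14 member differences past 2-fold, all 14 kept their sign under the 12 alternatives that give values, and 6 stayed past 2-fold under every one: Lepr in diabetic minus control, metformin minus diabetic, combination minus metformin and metformin minus control, and Socs3 in diabetic and in combination minus control. Diabetic minus control of Irs2 ran from -1.10 to -0.87 and of Foxo3 from -1.08 to -0.62, each past 2-fold under 8 of 12. Igfbp1 in metformin minus control ran from -1.02 to -0.35, and Lepr in combination minus diabetic from -1.37 to -0.71. Of 43 smaller member differences, 30 kept their sign. Members past 2-fold in diabetic minus control numbered 2 in place of 4 on a spike-in scale and with each array's own 75th percentile, where the all-gene median shifted by 0.22 and 0.12. In metformin minus control they numbered 2 in place of 4 on the spike-in scale (shift 0.67): Lepr stayed, Socs3 (-0.97), Irs2 (-0.97) and Igfbp1 (-0.35) fell short, and Irs1 passed 2-fold higher at 1.15. With normexp they numbered 1 in place of 2 in metformin minus diabetic and in combination minus control. In combination minus diabetic 0 in place of 1 passed with outlier spots kept or with no background filter. At 1.5-fold the counts were 3 of 9 in combination minus diabetic, 3 of 10 in combination minus metformin and 5 of 10 in combination minus control. Of all genes, 24.9%, 28.4% and 26.4% passed 1.5-fold in those pairs. Relative to the all-gene median, Lepr stayed between -4.30 and -3.12 in metformin minus diabetic and Socs3 between -2.55 and -2.44 in diabetic minus control. All-gene counts past 2-fold, higher and lower, were 805 and 767 in diabetic minus control (1227 and 503 on the spike-in scale, 1792 and 1437 without a background filter). They were 1226 and 492 in metformin minus diabetic (spike-in scale 2358 and 166), 562 and 817 in combination minus diabetic (own percentile 318 and 1327), 376 and 1253 in combination minus metformin (spike-in scale 115 and 2410), 1093 and 773 in metformin minus control (3144 and 194) and 637 and 817 in combination minus control (1104 and 532). All 66 list genes past 2-fold kept their sign, and 43 stayed past it under every alternative. The causes were not tested. No paired analysis was possible because each group has 1 array. Signals near background limit, among others, Insr, the first Foxo3 probe, Socs1, Il6st and the NM_146146 probe of Lepr.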
